A study of Homo sapiens with 6 samples.

Results

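The SLIT, ROBO and SRGAP genes make up a guidance pathway, and their transcripts were compared here between HEK293T cells given valproic acid (VPA) and untreated HEK293T cells. The members are 10 genes of the 47470 in the count files, chosen by name: the ligand genes SLIT1, SLIT2 and SLIT3, the receptor genes ROBO1, ROBO2, ROBO3 and ROBO4, and the intracellular genes SRGAP1, SRGAP2 and SRGAP3. The set was chosen from these same data, because SLIT2 fell after VPA while most other guidance genes rose. The values of SLIT2 are therefore given as a description with no test. HEK293T is an established cell line from human embryonic kidney with the large T antigen of SV40, and VPA is an antiepileptic fatty acid that inhibits histone deacetylases. RNA-seq was done on 3 untreated libraries and 3 libraries of cells kept in 1 mM VPA for 1 day. Neither a vehicle control nor separate cultures are named in the labels, so p-values measure the spread between these libraries, which may be technical.

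SLIT proteins are large secreted ligands with leucine-rich repeats that bind ROBO receptors at the cell surface, with heparan sulfate proteoglycans as co-receptors. In the developing nervous system this binding repels axons and migrating neurons, and at the midline it keeps crossed axons from crossing again. Slit2 and Robo2 are also known in the embryonic kidney, where they limit the site of ureteric bud outgrowth. Inside the cell, SRGAP proteins bind the ROBO tail and stimulate GTP hydrolysis by small GTPases.

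The 3 SLIT promoters are shown because the 3 ligand genes moved in opposite directions. Each is the RefSeq window of 300 bases on GRCh38.p14, from 250 bases before to 50 after the start, with GGGCGG on either strand in capitals, the GC-box letters of SP family factors. The windows are chr4:20251655-20251954 (plus) for SLIT2, chr10:97185910-97186209 (minus) for SLIT1 and chr5:169301090-169301389 (minus) for SLIT3.
SLIT2: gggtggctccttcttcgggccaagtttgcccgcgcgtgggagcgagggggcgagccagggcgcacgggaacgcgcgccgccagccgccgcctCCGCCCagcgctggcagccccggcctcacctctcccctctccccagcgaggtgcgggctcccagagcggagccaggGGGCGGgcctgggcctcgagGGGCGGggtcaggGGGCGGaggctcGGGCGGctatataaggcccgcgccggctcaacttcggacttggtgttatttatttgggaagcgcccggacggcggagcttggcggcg
SLIT1: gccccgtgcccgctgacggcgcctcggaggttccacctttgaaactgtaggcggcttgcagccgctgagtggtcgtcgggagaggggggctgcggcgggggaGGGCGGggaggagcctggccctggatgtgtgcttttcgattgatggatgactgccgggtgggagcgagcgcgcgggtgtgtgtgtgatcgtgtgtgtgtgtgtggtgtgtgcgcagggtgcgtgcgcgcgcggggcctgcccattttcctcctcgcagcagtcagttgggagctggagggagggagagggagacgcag
SLIT3: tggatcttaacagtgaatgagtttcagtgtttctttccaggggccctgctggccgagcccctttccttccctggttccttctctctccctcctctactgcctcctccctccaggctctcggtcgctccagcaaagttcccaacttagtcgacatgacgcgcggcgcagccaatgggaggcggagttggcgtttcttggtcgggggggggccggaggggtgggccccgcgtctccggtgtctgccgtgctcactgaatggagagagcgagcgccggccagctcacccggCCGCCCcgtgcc
The SLIT2 window held 5 matches that do not overlap, 36 CpG dinucleotides and 74.33% G and C. SLIT1 held 1 match, 27 CpGs and 68% G and C, and SLIT3 held 1 match, 22 CpGs and 64.67% G and C. Of all 35116 RefSeq promoter windows of that length, 44.95% held at least 1 match and 5.137% at least 5, with a median of 14 CpGs. Of the 17017 windows of tested genes, 65.09% held at least 1 match and 8.415% at least 5, with a median of 25 CpGs, so that SLIT3 lay below that median and SLIT1 close to it. Among the other tested members, the ROBO1 windows held 0 matches and the ROBO2 windows 0 and 1. The ROBO3 windows held 1, 4 and 1, SRGAP1 1, SRGAP2 2 and SRGAP3 0. Of these, ROBO1 was lower after VPA, and ROBO3 and the SRGAP genes were higher. Whether the number of matches goes with the direction of change was not tested. No binding or chromatin was measured, so the matches are letters only.

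SLIT2 and SLIT3 each carry a copy of the miR-218 gene in an intron, on the strand of the host gene, and the 2 loci give the same mature hsa-miR-218-5p, at chr4:20528299-20528319 (plus) and chr5:168768211-168768231 (minus). Its sequence is shown with the seed, bases 2 to 8, in capitals, followed by its seed match AAGCACA in capitals, with flanking bases, in the 3′ UTRs of ROBO1, ROBO2 and SLIT2.
hsa-miR-218-5p: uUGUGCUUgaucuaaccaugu
ROBO1: ttttttggttttaaAAGCACAatcactaa
ROBO2, first site: ttttatttggtgatAAGCACAaatctcta
ROBO2, second site: atcatgtccaatacAAGCACAgcttcatt
SLIT2, first site: ctgaagacaagcagAAGCACAtgcacgag
SLIT2, second site: cactaggacataccAAGCACAtgcgtgtg
The matches lie at chr3:78597936-78597942 (minus) for ROBO1, chr3:77646511-77646517 and chr3:77648956-77648962 (plus) for ROBO2, and chr4:20619308-20619314 and chr4:20619417-20619423 (plus) for SLIT2. SRGAP1 held 2 matches and SLIT3 and SRGAP2 1 each, at sites not shown, and these genes were higher after VPA. The members with sites shown had log2 fold changes below 0, so members with a match went both ways. Whether the matches bear on the changes was not tested. In all, 6 of the 10 members had at least 1 match, against 14.17% of 18772 annotated 3′ UTRs. Long 3′ UTRs hold any 7 letters more often. All 6 members with a match have 3′ UTRs longer than the median of 1089 bases, from 1552 for SLIT2 to 19545 for SRGAP1. Of the members with no match, ROBO3 alone has a shorter one (221 bases). The part of length in this share was not tested. MIR218-1 and MIR218-2 were at 0 counts in all 6 libraries of this mRNA protocol, which does not measure mature miRNAs.

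Gene counts summed to between 18622267 and 18828495 per library. Counts were scaled by trimmed mean of M values (TMM) and are given as normalized counts of an average library, with mean ± SD over n = 3. A gene was called higher or lower at an adjusted p below 0.05 (edgeR quasi-likelihood test, Benjamini-Hochberg over all 15298 genes tested), and up- or down-regulated where the log2 fold change also reached 1 in size. SLIT2 and ROBO1 were lower after VPA, and SLIT1, SLIT3, ROBO3 and all SRGAP genes were higher. Of the 10 members 9 passed the low-count filter, each with at least 71 counts in every library. Leaving SLIT2 aside, 6 members were called higher, beside 32.9% of all tested genes, and ROBO1 was called lower, beside 30.0%. SLIT1, SLIT3 and SRGAP3 were up-regulated, beside 12.0% of all tested genes, though SRGAP3 fell short of the fold threshold with DESeq2 and without untreated replicate 1 or VPA replicate 3, which left 2. No other member was down-regulated, beside 0.503% of all tested genes, and SLIT2, whose fall chose the set, is not counted as a call. The median log2 fold change was 0.30 over the 9 and 0.0058 over all tested genes. Nothing is read from these shares, since this contrast chose the set.

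**Figure D1:**
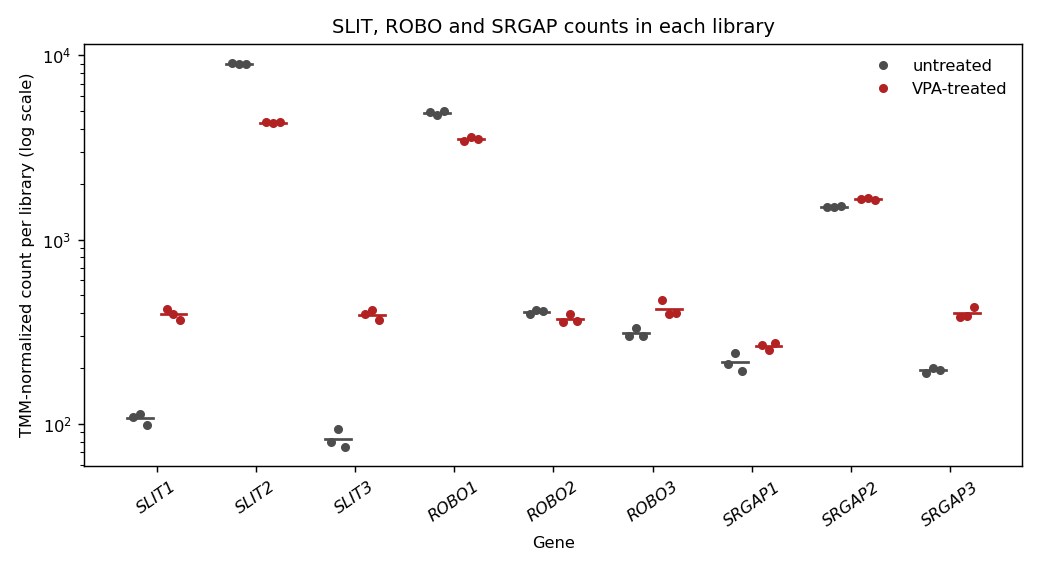
TMM-normalized counts (log axis) of the 9 tested members in the 3 untreated (grey) and 3 VPA-treated (red) libraries, with a bar at each group mean. The SLIT2 means were 8991 untreated and 4314 with VPA, while SLIT1 rose from 107 to 393 and SLIT3 from 82.8 to 391.

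SLIT2, on chromosome 4 at 20251905 to 20620561, plus strand, had the highest counts of the set. It had 9060, 8975 and 8940 normalized counts untreated and 4335, 4283 and 4323 with VPA. The groups were far apart, and the libraries of each group lay close together. The mean fell from 8991 ± 61.8 to 4314 ± 27.4, a fold of 0.480, with a log2 fold change of -1.06 (SE 0.038). SLIT2 ranked 62 from the lowest fold change among the 15298 genes and 397 from the highest mean count. Lower calls were common among such abundant genes: of the 618 genes whose mean normalized count reached 5000, 80.7% were called lower, and 2, SLIT2 included, had a log2 fold change below -1. Scaled by library totals alone, the log2 fold change of SLIT2 was -0.93, short of the fold threshold, with the median of all tested genes at 0.14.

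SLIT1 and SLIT3 moved the other way, from far lower counts. SLIT1, on chromosome 10 at 96998038 to 97185959, minus strand, had 109, 113 and 98.7 normalized counts untreated and 418, 392 and 368 with VPA. The groups did not overlap, and its mean rose from 107 ± 7.37 to 393 ± 25.1, or 3.67-fold (log2 fold change 1.88, SE 0.092, adjusted p = 1.42e-13). SLIT3, on chromosome 5 at 168661740 to 169301139, minus strand, had 79.7, 94.2 and 74.5 normalized counts untreated and 394, 412 and 367 with VPA. Its groups did not overlap either, and the mean rose 4.72-fold, from 82.8 ± 10.2 to 391 ± 22.9 (log2 fold change 2.24, SE 0.099, adjusted p = 3.25e-14). Both genes lie in the class with a mean over the 6 libraries of 200 to 1000 normalized counts, in which 5.78% of 5118 genes were up-regulated. Their untreated means lie in the range of the class of 50 to 200, in which 24.3% of 2435 genes were. In these bulk samples, more cells expressing a gene and more RNA per cell cannot be told apart.

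The rises of SLIT1 and SLIT3 did not offset the fall of SLIT2 in the summed counts. The 3 ligand genes summed to between 9113 and 9248 normalized counts in the untreated libraries and between 5057 and 5147 in the treated ones. To compare levels between genes, counts were divided by the exon length in kb. On this scale SLIT2 made up 97.7% to 98.1% of SLIT transcripts untreated and 84.2% to 85.6% with VPA. The share of SLIT1 went from between 1.31% and 1.49% to between 8.81% and 9.83%, and that of SLIT3 from between 0.634% and 0.796% to between 5.63% and 6.30%. SLIT2 thus stayed the main ligand transcript in all 6 libraries.

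**Figure D2:**
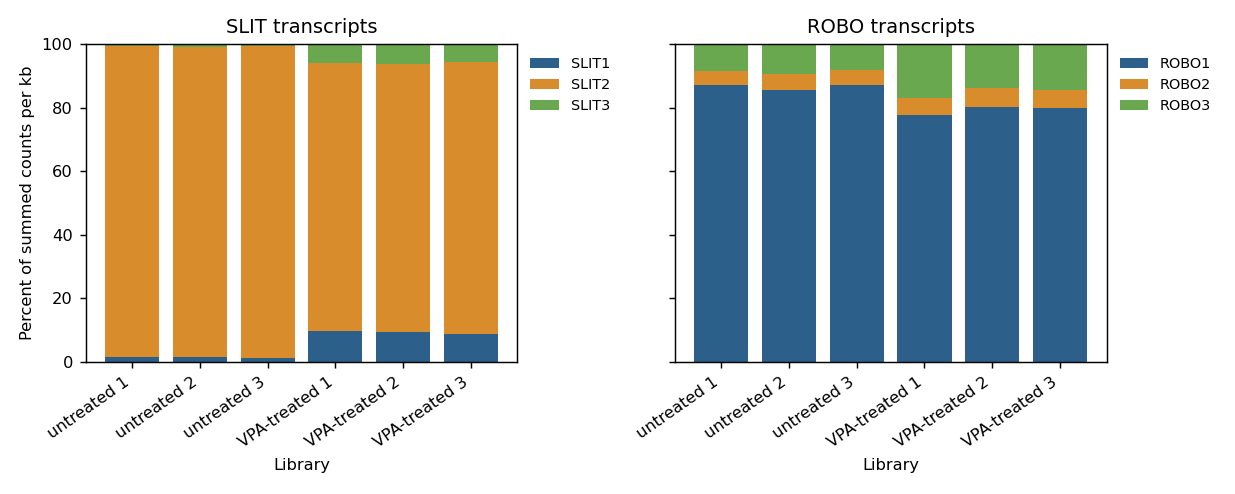
Each member's percent of the summed normalized counts per kb of exon, for SLIT transcripts (left) and ROBO transcripts (right) in each library. SLIT2 and ROBO1 held the largest share in all 6 libraries, with smaller shares under VPA than untreated.

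ROBO1, the receptor gene with the highest level, was lower after VPA. It lies on chromosome 3 at 78597239 to 79767998, minus strand, and had 4938, 4757 and 4978 normalized counts untreated and 3409, 3600 and 3500 with VPA. The groups did not overlap, and the mean went from 4891 ± 118 to 3503 ± 95.6, or 0.716 times (log2 fold change -0.48, SE 0.040, adjusted p = 9.46e-10), which did not reach the fold threshold. Of the 4025 genes with a mean of 1000 to 5000 normalized counts, 53.9% were called lower.

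ROBO3, known for delaying the response to SLIT in axons before they cross the midline, was higher after VPA. The gene, on chromosome 11 at 124865432 to 124881471, plus strand, had 301, 330 and 299 normalized counts untreated and 468, 394 and 401 with VPA. All treated libraries were above all untreated ones, with VPA replicate 1 highest, and the mean rose 1.36-fold, from 310 ± 17.1 to 421 ± 40.6 (log2 fold change 0.44, SE 0.078, adjusted p = 4.67e-05).

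ROBO2, on chromosome 3 at 75906675 to 77649964, plus strand, did not pass the test. Its normalized counts were 395, 415 and 409 untreated and 357, 395 and 363 with VPA, so the lowest untreated and highest treated libraries were nearly equal. The log2 fold change was -0.13 (95% interval -0.27 to 0.013, adjusted p = 0.106), and its sign turned to 0.0028 with library totals. ROBO4, the endothelial receptor, on chromosome 11 at 124883691 to 124897865, minus strand, was at 0 counts in all 6 libraries, which allows up to 3 counts, or 0.159 to 0.161 CPM, per library, for counting error only. Of 10 endothelial markers, ERG was also at 0 and PECAM1, CDH5, TEK, TIE1 and CLDN5 had 1 to 7 counts over all libraries. The other 4, EGFL7, KDR, ESAM and VWF, were each called higher, beside 32.9% of all tested genes. The list summed to 294 to 345 normalized counts untreated and 749 to 775 with VPA.

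Together the ROBO genes summed to between 5502 and 5686 normalized counts untreated and between 4234 and 4389 with VPA. Per kb of exon, ROBO1 made up 85.7% to 87.0% of ROBO transcripts untreated and 77.7% to 80.3% with VPA. ROBO3 made up 8.27% to 9.40% and then 13.9% to 16.9%, and ROBO2 4.62% to 4.95% and then 5.41% to 5.84%.

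The SRGAP genes, which encode GTPase-activating proteins with a membrane-bending F-BAR domain, were all called higher, beside 32.9% of all tested genes. SRGAP3 changed most, and the calls of SRGAP1 and SRGAP2 were lost with DESeq2. SRGAP3, on chromosome 3 at 8980591 to 9363027, minus strand, had 189, 201 and 196 normalized counts untreated and 378, 384 and 430 with VPA. The groups did not overlap, and the mean rose 2.03-fold, from 196 ± 5.79 to 397 ± 28.5 (log2 fold change 1.02, SE 0.080, adjusted p = 4.01e-10). The fold lies at the threshold, and leaving out 1 library at a time gave log2 fold changes of 0.96 to 1.06, and DESeq2 gave 0.998.

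SRGAP2, on chromosome 1 at 206203541 to 206464436, plus strand, had 1500, 1496 and 1521 normalized counts untreated and 1657, 1677 and 1636 with VPA. The groups did not overlap, but the change was small (log2 fold change 0.14, SE 0.043, adjusted p = 0.00846), and with DESeq2 the adjusted p was 0.0827. SRGAP1, on chromosome 12 at 63844700 to 64162217, plus strand, had 210, 243 and 193 normalized counts untreated and 268, 252 and 275 with VPA. Its groups came close (log2 fold change 0.30, SE 0.090, adjusted p = 0.00619), and the call was lost with DESeq2 (adjusted p = 0.0612) and without untreated replicate 3 (log2 fold change 0.22, adjusted p = 0.0516).

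SRGAP2 has partial human copies, near-identical in sequence, and reads that fit several copies were not given to one, so the values of all copies are uncertain. SRGAP2C had 249 normalized counts untreated and 243 with VPA (adjusted p = 0.722), SRGAP2B 114 and 124 (adjusted p = 0.329), and SRGAP2D 39.3 and 36.8 (adjusted p = 0.685). The relative ARHGAP4 is on the X chromosome, where all counts in the files are 0. FAM72A, which overlaps the start of SRGAP2, had 298 normalized counts untreated and 266 with VPA (adjusted p = 0.130).

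**Figure D3:**
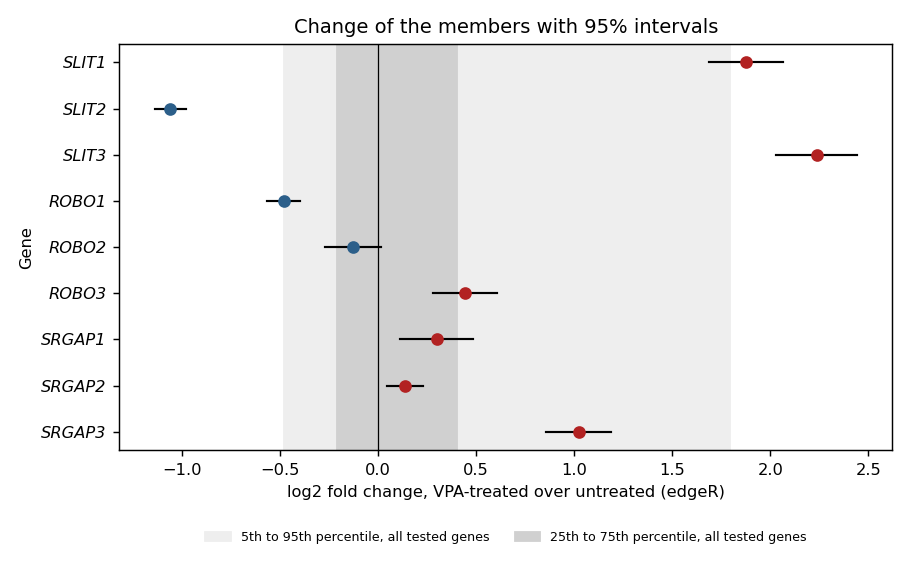
log2 fold change (VPA-treated over untreated) of each tested member with its 95% interval, red above 0 and blue below, over the middle 50% (dark grey) and 90% (light grey) of all tested genes. SLIT2 lies below the light band and ROBO1 just at its lower edge, and SLIT1 and SLIT3 lie above it. Leaving SLIT2 aside, ROBO2 alone has an interval that includes 0. The interval drawn for SLIT2 is no test, since its fall chose the set.

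Per kb of exon the order of the members was led in both groups by SLIT2, ROBO1, SRGAP2 and ROBO3. Untreated, these had mean levels of 812, 443, 96.5 and 44.4 normalized counts per kb, and with VPA 390, 317, 106 and 60.3, in each case with no overlap between neighbours in the order. The lower part of the order differed. Untreated, ROBO2 followed at 24.4, SLIT1 at 11.7, SRGAP3 at 10.4, SRGAP1 at 7.88 and SLIT3 at 5.81. With VPA, SLIT1 followed at 42.9, SLIT3 at 27.4, ROBO2 at 22.3, SRGAP3 at 21.1 and SRGAP1 at 9.70. ROBO2 and SRGAP3 overlapped between libraries under VPA, and the lower part of the order rests on the length used. With the length of the main transcript in place of all exons, SLIT1 and SRGAP3 changed places untreated, and under VPA SRGAP3 came before ROBO2 and SLIT3.

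**Figure D4:**
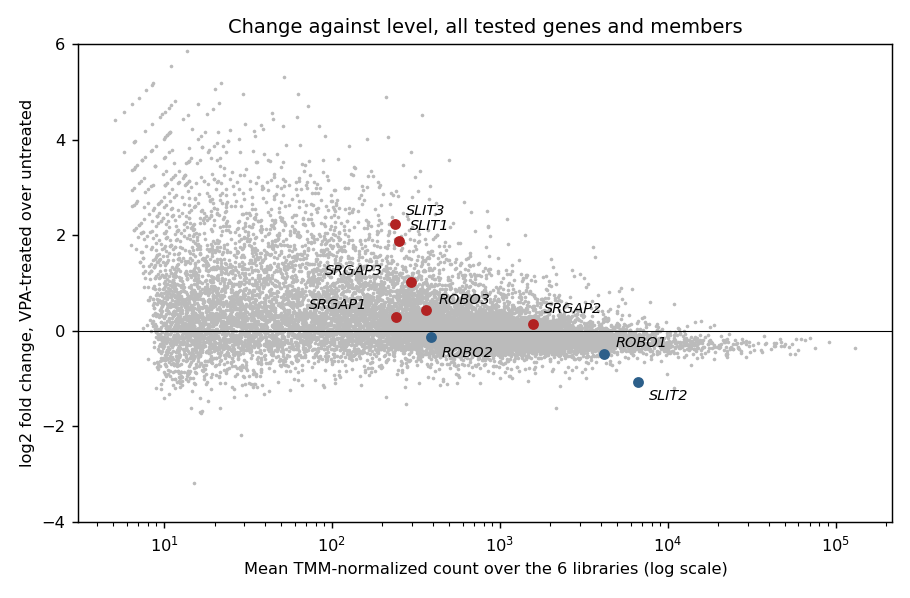
log2 fold change against the mean normalized count over 6 libraries (log axis) for all tested genes (grey) and members (red above 0, blue below); 4 genes lie outside the vertical range. SLIT2 lies under nearly all genes of its level.

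The nearest tested genes on each side of SLIT2 did not pass the test. LCORL, 2230 kb away, had a log2 fold change of 0.064 (adjusted p = 0.503) and PACRGL, 75.7 kb away, 0.034 (adjusted p = 0.740). Genes that did not pass the low-count filter were left out of this search, for all members. Beside SLIT1, LCOR was not past the test (0.068, adjusted p = 0.213) and ARHGAP19 was lower (-0.30, adjusted p = 2.44e-05). Beside SLIT3, PANK3 was higher by 0.11 (adjusted p = 0.0291) and SPDL1 did not pass (-0.039, adjusted p = 0.496). All 6 of these nearest tested genes had log2 fold changes nearer to 0 than their SLIT gene. Most tested genes would do so too, since the lower and upper quartiles of all tested genes were -0.21 and 0.40. Nothing is therefore read from this, and whether the changes were confined to the SLIT genes was not tested. GBE1, a glycogen branching enzyme gene 1721.7 kb from ROBO1, was lower, from 529 to 297 normalized counts (log2 fold change -0.83, adjusted p = 5.13e-09). ZNF717 beside ROBO2 (0.34) and IKBKE beside SRGAP2 (0.28) were higher and THUMPD3 beside SRGAP3 (-0.19) lower, while MSANTD2-AS1, CCDC15-DT, RXYLT1, KICS2, SLC26A9-AS1 and RAD18 did not pass the test. Within the members, SLIT2-IT1 had 19 counts in all, LOC124900544 inside ROBO2 11 and SRGAP3-AS4 15.

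Across the 6 libraries, the genes with the pattern most like that of SLIT2 were ZNF503-AS2, NRP1 and HOXC9, with root mean square differences of 0.034, 0.046 and 0.048 between centred log2 values, among 12187 candidates. Their log2 fold changes were -1.04, -1.08 and -1.10, near the -1.06 of SLIT2. With 6 libraries in 2 conditions, such likeness largely restates the change that chose the set, and nothing further is read from it. NRP1, a neuropilin receptor for semaphorins and VEGF, had 755 normalized counts untreated and 356 with VPA (log2 fold change -1.08).

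Of 53 genes listed as partners of the pathway 52 were tested, and 15 were higher, 16 lower and 21 not past the test, with a median log2 fold change of -0.0015. Both shares were near those of all tested genes, 32.9% higher and 30.0% lower. Among 9 co-receptors and other ligands 4 were higher and 1 lower. The syndecan SDC1 rose from 251 to 682 normalized counts (log2 fold change 1.44), the ROBO3 ligand NELL2 from 898 to 1956 (1.12) and the chemokine receptor CXCR4, whose signal SLIT can dampen, from 153 to 354 (1.21). The glypican GPC1 rose from 502 to 681 (0.44), while CDH2, the N-cadherin gene, fell from 2069 to 1596 (-0.37). Of 5 heparan sulfate enzyme genes 2 were higher and 1, the sulfotransferase gene NDST1, was lower (-0.25).

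Downstream of the receptor, 11 GTPases and regulators were tested, of which 6 were lower, among them CDC42 (-0.30), RHOA (-0.15) and the kinase gene PAK2 (-0.33), and 2 were higher, PAK1 and RAC2, the last from 4.87 to 28.5 normalized counts. Most of the 6 had means of 1000 to 5000 normalized counts, where 53.9% of all tested genes were lower, and RHOA lay above 5000, where 80.7% were. Of 15 kinase and actin effector genes 3 were higher, among them CAP2 (0.52), and 4 lower. The lower ones were ABL1 (-0.28), CABLES1 (-0.31), the profilin gene PFN1 (-0.23) and CTNNB1, the beta-catenin gene, from 14704 to 11386 (-0.37). ABL1 and CABLES1 lay at means of 1000 to 5000 and PFN1 and CTNNB1 above 5000, the classes with 53.9% and 80.7% lower. ENAH, an actin regulator, did not pass (-0.080, adjusted p = 0.0953). Of 7 genes for receptor processing 2 were higher, among them the ubiquitin ligase gene NEDD4L (0.35), and 2 lower. Of 5 transcription factors known upstream of SLIT or ROBO genes, LHX2 (0.69) and LHX9 (1.25) were higher and ISL1 (-0.38) and PAX6 (-0.46) lower. These counts by role stand beside 32.9% higher and 30.0% lower of all tested genes, and nothing is read from them. With library totals the counts of the whole partner list were 27 higher and 10 lower.

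Of 64 other guidance genes 56 were tested, and 38 were higher and 12 lower, beside 32.9% higher and 30.0% lower of all tested genes. Their median log2 fold change was 0.47. The all-gene shares depend on level. Higher calls went from 52.9% at means of 50 to 200 normalized counts to 4.85% at 5000 or more. Lower calls went from 6.32% below 50 to 80.7% at 5000 or more, and the guidance genes were not matched for level. Some genes, PLXNA1 and NTN1 among them, stand in both this list and the partner list. Of the 56 tested, 18 were up-regulated, beside 12.0% of all tested genes. That share depends on level, with 29.4% at means below 50 normalized counts, 24.3% at 50 to 200 and 5.78% at 200 to 1000. Many of the 18 had means below 200. Among the 18 were the semaphorin SEMA6B (126 to 692 normalized counts), the ephrin receptor EPHB2 (406 to 1071) and the plexins PLXND1 (641 to 1545) and PLXNC1 (19.1 to 171). The netrin receptor UNC5A (39.3 to 229) was another, and NRP1 was the 1 down-regulated gene. EPHA7 (-0.73), EFNB2 (-0.41), EFNA5 (-0.51) and SEMA3C (-0.60) were lower too. Of the most abundant, PLXNB2 (0.39) and NEO1 (0.11) were higher, and PLXNA1 (-0.039, adjusted p = 0.458) and EPHB4 (-0.11, adjusted p = 0.0657) did not pass. SLIT2 was chosen against this pattern, so no contrast between them was tested.

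**Figure D5:**
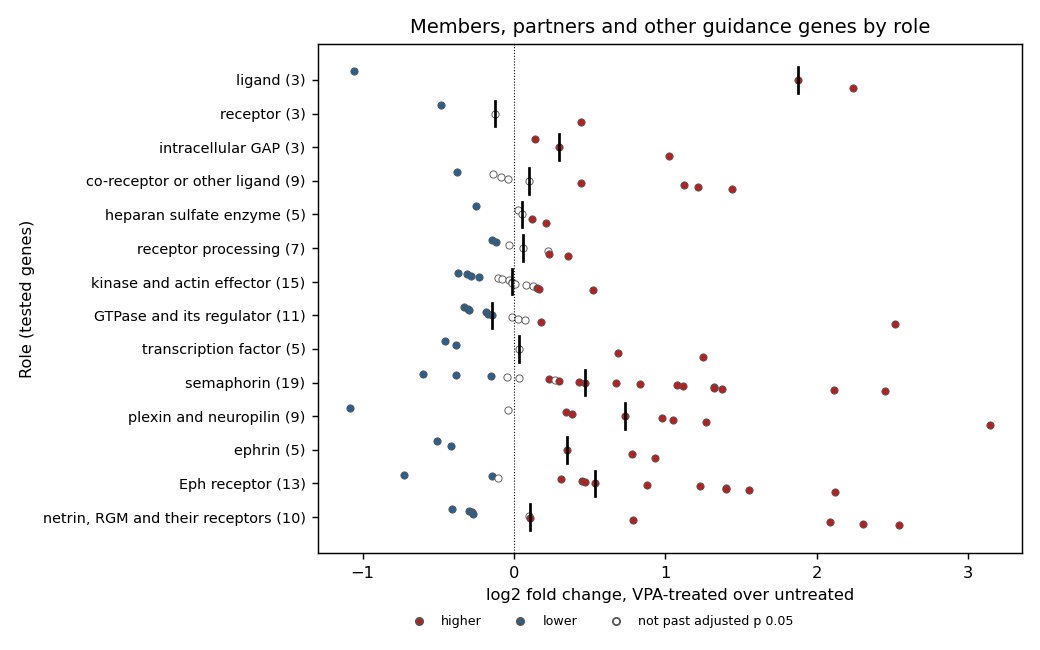
log2 fold change of each tested member, partner and other guidance gene by role, with the number tested in brackets, filled red where called higher, blue where lower and open where not past the test; SLIT2 is coloured by its description. Bars mark medians, and the ligand row spans -1.06 to 2.24.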

How the data were processed

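mRNA of HEK293T cells was sequenced in 6 strand-specific, paired-end libraries. Per the labels, the authors aligned reads to hg38 with STAR 2.7.10b and counted them per gene with HTSeq 2.0.1. The annotation and strand setting are not given in the sources used here. The deposited values are raw counts per gene, and lines that name no gene held 11.81% to 12.66% of reads listed and were left out. Genes of chromosomes X, Y and the mitochondrion were at 0. Groups came from the labels. Gene counts were fitted with edgeR 4.0.16 (R 4.3.3): filterByExpr with a minimum count of 10, TMM scaling and the robust quasi-likelihood test, with the Benjamini-Hochberg adjustment over 15298 genes. The common biological coefficient of variation was 3.83%. Intervals are 95% intervals of the fit. The script was tested on simulated data. Alternatives were DESeq2 1.42.0, other scalings and filters, a block on the replicate number, and fits without each library in turn. Libraries of a group differed by more than sampling noise in each pair (chi-square of 1.62 or more per gene). Coordinates, promoters and miRNAs are from RefSeq on GRCh38.p14, to which 43108 of 47470 counted genes matched, and exon lengths and 3′ UTRs from the GENCODE annotation. Genes were named by rule: all members, overlapping genes with at least 10 counts, the nearest tested gene on each side, from each list up to 5 genes of smallest p in each direction and up to 4 of highest mean, and the 3 genes nearest in pattern to each member past the test (candidates: mean normalized count of 50 or more). Other genes named in a role were chosen after their values were seen. The members and all lists were chosen with earlier results of these data known.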

Additional observations from a re-analysis of the deposited data

How the results depend on the processing

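SLIT1, SLIT3, ROBO1, ROBO3 and SRGAP3 kept their direction and call under every alternative run, though SRGAP3 did not always reach the fold threshold. SLIT2 kept its direction but fell short of the fold threshold with library totals. ROBO2 changed sign in 1 alternative, and SRGAP1 and SRGAP2 lost their calls with DESeq2. The log2 fold change of SLIT2 was -1.08 with DESeq2, -1.07 with DESeq2 size factors, -0.93 with library totals, -1.08 with no filter, -1.04 where each library had to hold 10 counts, and -1.07 to -1.06 when leaving out 1 library. With library totals, ROBO2 turned to 0.0028 (adjusted p = 0.974), the members past the fold threshold downwards numbered 0 in place of 1 (SLIT2), the down-regulated other guidance genes 0 in place of 1, and the partners 27 higher in place of 15 and 10 lower in place of 16. SRGAP1 was 0.28 with DESeq2 (adjusted p = 0.0612) and ranged from 0.22 to 0.39 when leaving out 1 library, and SRGAP2 was 0.11 with DESeq2 (adjusted p = 0.0827), so that 4 members were higher with DESeq2 in place of 6. SRGAP3 was 0.998 with DESeq2, 0.993 without untreated replicate 1 and 0.960 without VPA-treated replicate 3, each time leaving 2 up-regulated members in place of 3. Over all genes, the share of higher among calls was 52.3% in the fit reported and 73.9% with library totals, and 77 genes were down-regulated in the fit reported, 38 with library totals and 162 with no filter. The cause of these changes was not tested, except that library totals move the median of all genes. With the replicate number as a block, 6 members were higher and no member's call changed. Libraries of the same number deviated together with r of 0.329, 0.091 and 0.245, and each correlated best with its own number, a hint from the data and not the design. At this depth a count of 0, as for ROBO4, allows up to 3 counts per library.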

Other observations

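Across the 6 libraries, the genes with the pattern most like each of the other members, by the root mean square difference of centred log2 values, were DYSF, ST6GALNAC5 and SYT7 for SLIT1 and CRYM, RBFOX3 and ADCYAP1R1 for SLIT3. They were SRSF4, HNRNPA3 and NFKB1 for ROBO1, HOXB13, HS1BP3 and RHOBTB2 for ROBO3, LRRC8E, TMEM14A and ARSG for SRGAP1, SEPTIN7, STAT3 and RTL6 for SRGAP2, and ELMOD1, IQGAP2 and INKA2 for SRGAP3.

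All 6 markers of the HEK293 line (VIM, NEFM, NEFL, KRT18, KRT8 and PAX2) were counted, 5 of them higher after VPA and VIM lower, from 10739 to 8931 normalized counts, and the list summed to 17196 to 17715 untreated and 20556 to 21869 with VPA. Of all tested genes 32.9% were called higher, with 40.9% at means below 50 normalized counts, 52.9% at 50 to 200 and 35.2% at 200 to 1000. At means of 5000 or more, where VIM lay, 80.7% were called lower. Of 10 neuron markers 4 were tested and all 4 were higher, among them TUBB3 (162 to 422) and MAP2 (19.5 to 68.8). SYP and DCX, on the X chromosome, were at 0. That list summed to 176 to 226 normalized counts untreated and 588 to 643 with VPA, and its part in the changes of the SLIT, ROBO and SRGAP genes was not tested.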
